A study of Mus musculus with 4 samples.

Results

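The cytosolic ribosome is built from a large subunit, with proteins named Rpl, and a small subunit, with proteins named Rps, around the ribosomal RNAs. Platelets have no nucleus, so their ribosomal protein mRNAs come from the megakaryocytes that shed them. In other mammalian cells these mRNAs are among the most abundant, and most carry a run of pyrimidines at the start of the transcript (the 5′TOP motif) through which their translation is regulated together. Mammalian genomes also hold many processed pseudogenes of them, copies of the spliced mRNA inserted elsewhere, so that short reads can be hard to place.

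The members are the protein-coding genes named as Rpl, Rps, Rplp or Rpsa proteins, without the Rps6 kinases and an Rps19-binding protein. They number 85 of the 14652 genes found in both deposited tables, 51 of the large and 34 of the small subunit. Of these, 77 are core subunits, 46 large and 31 small, and 8 are paralogues or copies: Rpl22l1, Rpl7l1, Rps27l, Rps27rt, Rps12-ps3, Rpl9-ps6, Rpl10-ps3 and Rpl27-ps3. The core counts leave out ribosomal proteins under other names, of which Fau and Rack1 are given below for comparison. Rpl39l and Rpl36a-ps1 were listed only in the table of WT and cKO, with at most 3 and 7 reads, and are no members.

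Platelet RNA of mice was sequenced in 4 libraries, 1 per group, each from the pooled platelets of 7 mice. WT were wild-type littermates at 3 months of age, and cKO were littermates labelled as a platelet-specific conditional knockout of HuR, the RNA-binding protein encoded by Elavl1, at the same age. Young and Old were WT mice of 3 and 24 months, and the series' design text gives male mice throughout. The Cre line, the floxed exons and the strain are not given in the sources used here. With 1 library per group no difference has a replicate check. The intervals below are exact 95% intervals of counting error alone (reads copied by PCR count a molecule more than once), and each comparison is between 2 pools. In bulk RNA, fewer cells of a type and less RNA per cell cannot be told apart.

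The libraries held 17702341 to 18472149 recovered reads. Elavl1 itself had 876 reads in WT and 1481 in cKO, beside 621 in Young and 527 in Old. It was 1.66-fold higher in cKO than in WT (1.53 to 1.81), not lower. The values are per gene and the floxed exons are not given, so this count cannot check the label. The second group is called, by its label alone, the library labelled cKO. The 15 platelet markers made up 5.41% to 6.63% of reads in each library, with Old highest, and none of the 15 was at 0.

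Ribosomal protein mRNAs were a small part of these platelet libraries, and a smaller part in Old than in the others. The 85 members took 0.767% of the reads in Old (Wilson interval 0.763% to 0.771%), against 1.23% in Young (1.22% to 1.23%), 1.16% in WT (1.15% to 1.16%) and 1.12% in the library labelled cKO (1.11% to 1.12%). Old stood apart below the 3 libraries of 3-month mice, whose shares lay close to each other. Core large subunit genes took 0.657%, 0.692%, 0.723% and 0.482% of reads in WT, the library labelled cKO, Young and Old, and core small subunit genes 0.480%, 0.416%, 0.493% and 0.274%. Of the 80 members with at least 100 reads in some library, 72 had their lowest share of reads in Old, 4 in WT, 2 in the library labelled cKO and 2 in Young. The same count was not made over all genes. Scaled by library totals, as these shares are, all genes also leaned lower in Old. Their median log2 ratio was then -0.22 against Young and -0.10 against WT.

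Levels of the members were compared per length, as RPKM (reads scaled by library total and transcript length in kilobases), over the shortest principal coding transcript of the GENCODE M21 annotation. Rpl41, the smallest ribosomal protein, was highest, at 1192 RPKM in WT and 1355 in the library labelled cKO, beside 1058 in Young and 1056 in Old. Rplp1, an acidic stalk protein that recruits translation factors, stood at 634, 1330, 867 and 679 RPKM. Rplp0, the stalk protein that anchors Rplp1 and Rplp2, stood at 501, 621, 568 and 573 RPKM. These 3 genes took the top 3 ranks in each of the 4 libraries, with Rps4x and Rps14 next by the mean over libraries, at 342 and 310 RPKM. The first place depends on the length used: over the deposited exon length, Rplp1 averaged 878 RPKM and Rpl41 436 RPKM.

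The 5 core members with the lowest mean level were Rpl21, Rpl7a, Rpl13a, Rpl24 and Rps10. Rpl21 averaged 25.5 RPKM, Rpl7a 13.0 and Rpl13a 4.07. Rpl24, a late-joining large subunit protein, had 30 reads in WT and 23 in the library labelled cKO, beside 13 in Young and 11 in Old. Rps10 had 4, 2, 6 and 0 reads. Both lay far below the median core gene, which was at 142 RPKM for the large and 177 RPKM for the small subunit in WT. Both share much of their sequence with other annotated genes: 81.7% of the 50-base stretches of the Rpl24 transcript and 92.4% of those of Rps10 also occur in another gene. Abundant members can share as much, such as Rps27 with 98.7% at a mean of 225 RPKM. Over 77 core genes this share and the log2 mean level had a Pearson r of -0.17. Exons of other genes at the same locus overlap 47.0% of the exon bases of Rpl24 and 28.7% of those of Rps10. The part of either in the low counts was not tested. Over the core members, levels in one library followed those in another with a Pearson r of 0.95 to 0.98 on the log2 scale (77 genes that share each library's depth and each gene's length).

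**Figure D1:**
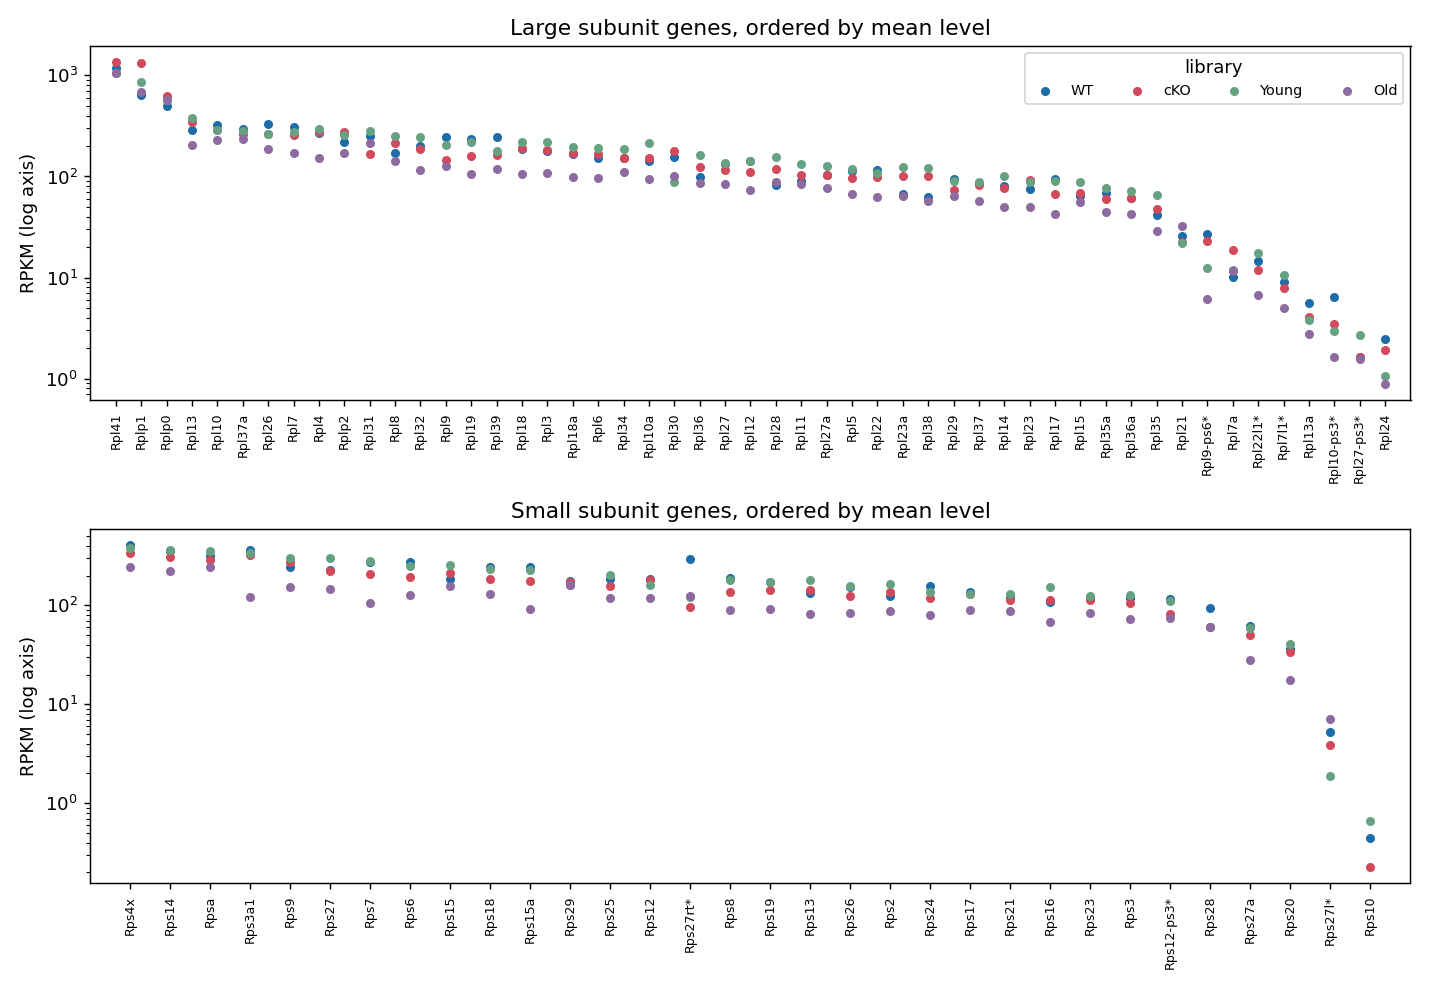
RPKM on a log axis of the members drawn in the 4 libraries, large subunit above and small subunit below, ordered by the mean over libraries. Points are single libraries, an asterisk marks members outside the core lists, and Rps10 in Old, with 0 reads, is not drawn. Most members lie within one decade, Old is the lowest library for most, and Rpl24 and Rps10 lie at the bottom.

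The series concerns platelet HuR in systemic aging, and Old against Young addresses the age of the mouse. Most ribosomal protein genes had fewer reads in Old, most often by less than 2-fold. By the interval bound nearest to 1, Rps3a1, Rps7 and Rps15a, all of the small subunit, were lowest. Rpl22l1 of the large subunit, given below, had a lower ratio than Rps15a but a wider interval. The size rule asked for 100 reads or more in the larger library and for an interval lying wholly beyond 2-fold. By this rule 3 of the 79 members tested were lower and 0 higher, against 4.3% lower and 4.26% higher of all 6519 genes tested. With a bound of 1.5-fold, 36 of 79 were lower and 0 higher, against 12.9% lower and 10.4% higher of all genes. The interval lay below 1 for 71 of 79 and above 1 for 6, where 40.5% and 35.6% of all genes did so. The median log2 ratio was -0.64 over the 84 members with at least 20 reads in both libraries together, -0.06 over all genes and 0.12 over genes with at least 1000 reads. Between the same 2 libraries the neutrophil markers were higher and the B cell markers lower in Old, with sums of 0.00315% and 0.0844% and of 0.0472% and 0.0199% of reads in Young and Old. The platelet markers had a median log2 ratio of 0.64, with 12 of 15 above 1 and a summed ratio of 1.33. The part of these markers' cells in the members' values was not tested.

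Rps3a1 encodes a small subunit protein, eS1, near the mRNA exit of the ribosome. It had 6393 reads in WT and 5524 in the library labelled cKO, beside 6046 in Young and 2173 in Old, 2.54-fold lower in Old than in Young (2.42 to 2.67). The 3 libraries of 3-month mice lie near each other and Old is alone below them. With the reads of its copies added, described below, Rps3a1 was 1.86-fold lower and did not pass the rule.

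Rps7 encodes eS7, a protein of the small subunit body. It had 4067, 2992, 4131 and 1595 reads in the same order, 2.37-fold lower in Old than in Young (2.23 to 2.51). Rps15a encodes uS8, a core small subunit protein. Its 2798, 1991, 2623 and 1088 reads gave 2.20-fold lower (2.05 to 2.37). In both genes the library labelled cKO lay between Old and the other 3-month libraries.

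Rps20, Rpl10a and Rps16 followed at 2.06-, 2.05- and 2.01-fold lower, with interval bounds of 1.92, 1.91 and 1.88 that missed the rule. Rps20 sits in the small subunit head and had 2428, 2234, 2732 and 1214 reads, with Old alone below the rest. Rpl10a, the large subunit's L1 stalk protein, had 1845, 1947, 2851 and 1273 reads. Rps16, near the decoding site, had 2180, 2224, 3074 and 1398 reads. For Rpl10a and Rps16 Young was the highest library, so Old lay closer to WT than to Young: Rpl10a was 1.45-fold and Rps16 1.56-fold lower in Old than in WT.

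Above 1 stood 9 of the 84 members, among them Rplp0 and Rpl41, the 2 with the most reads by the mean over libraries. Of all genes with the same read minimum, 5530 of 11694 stood above 1. Rplp0 had 12232 reads in WT and 14919 in the library labelled cKO, beside 13999 in Young and 14362 in Old, 1.12-fold higher in Old than in Young (1.10 to 1.15). Rpl41 had 9366, 10485, 8391 and 8523 reads, 1.11-fold higher (1.08 to 1.15). Rpl21 had the largest ratio with at least 100 reads, 532 reads in Old and 360 in Young, 1.62-fold higher (1.41 to 1.85), but stood at 1.01 (0.936 to 1.09) with the reads of its copies added. Rpl30, at 902 reads in Young and 1076 in Old, also had 1608 and 1792 reads in WT and the library labelled cKO, so Young was its lowest library. Rps29 had 1241, 1202, 1135 and 1145 reads, the narrowest range over the 4 libraries among the 80 members with at least 100 reads. Rpl30, Rps27rt, Rps29, Rps28 and Rpl7a were at 1.31, 1.13, 1.10, 1.11 and 1.10, the last 2 with intervals that span 1. Rps27l, a p53-regulated paralogue of Rps27, had 47, 34, 17 and 65 reads, too few for the size rule, and stood 4.19-fold higher in Old than in Young (2.43 to 7.62). It was 3.02-fold higher in WT than in Young (1.70 to 5.61), so Young was its lowest library and WT and Old lay closer together.

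Of the 12 members fixed by name as known from ribosome biology, all except Rplp0 were lower in Old than in Young, with intervals below 1. Of all genes, 40.5% had an interval below 1. None of the 12 passed the 2-fold rule, which 4.3% of all genes passed as lower. Rps6, the substrate of S6 kinase, had 4336 reads in WT and 2998 in the library labelled cKO, beside 4025 in Young and 2059 in Old, 1.79-fold lower in Old (1.69 to 1.88). Rpl5 had 4162, 3492, 4410 and 2539 reads in the same order of libraries and Rpl11 had 1336, 1527, 2017 and 1289. Rpl5 and Rpl11, which form the 5S particle that can bind Mdm2, were 1.59-fold (1.51 to 1.67) and 1.43-fold (1.33 to 1.53) lower. Rps19, a gene mutated in Diamond-Blackfan anaemia, had 1951, 1606, 1976 and 1066 reads and was 1.69-fold lower (1.57 to 1.83). Old had the fewest reads of each of these 4 genes, but for Rpl11 its ratio to WT was 0.967 (0.895 to 1.04), an interval that spans 1. Rpsa, the laminin receptor precursor, had 9139, 8209, 10257 and 7169 reads and was 1.31-fold lower (1.27 to 1.35). Rpl38, studied for its part in translating Hox mRNAs, was 1.91-fold lower (1.69 to 2.17) with its counts given under cKO over WT. Rps27a, a fusion with ubiquitin, had 701, 562, 685 and 330 reads and was 1.90-fold lower (1.66 to 2.17). Old held the lowest count for both, but Rpl38 in Old stood at 0.930 of WT (0.805 to 1.08), an interval that spans 1, and WT was itself lower than Young past the 1.5-fold bound. Rplp1 and Rplp2, the partners of Rplp0 in the stalk, were 1.15-fold (1.11 to 1.18) and 1.36-fold (1.27 to 1.46) lower, so the stalk proteins did not share 1 direction. Rplp2 had 1676, 2044, 1987 and 1333 reads, highest in the library labelled cKO as Rplp1 and Rplp0 were. Rpl10, a late-joining protein of the large subunit, had 4592, 4073, 4221 and 3425 reads and was 1.13-fold lower in Old than in Young (1.08 to 1.18). Rpl22 had 977, 825, 930 and 543 reads and was 1.56-fold lower (1.41 to 1.74).

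**Figure D2:**
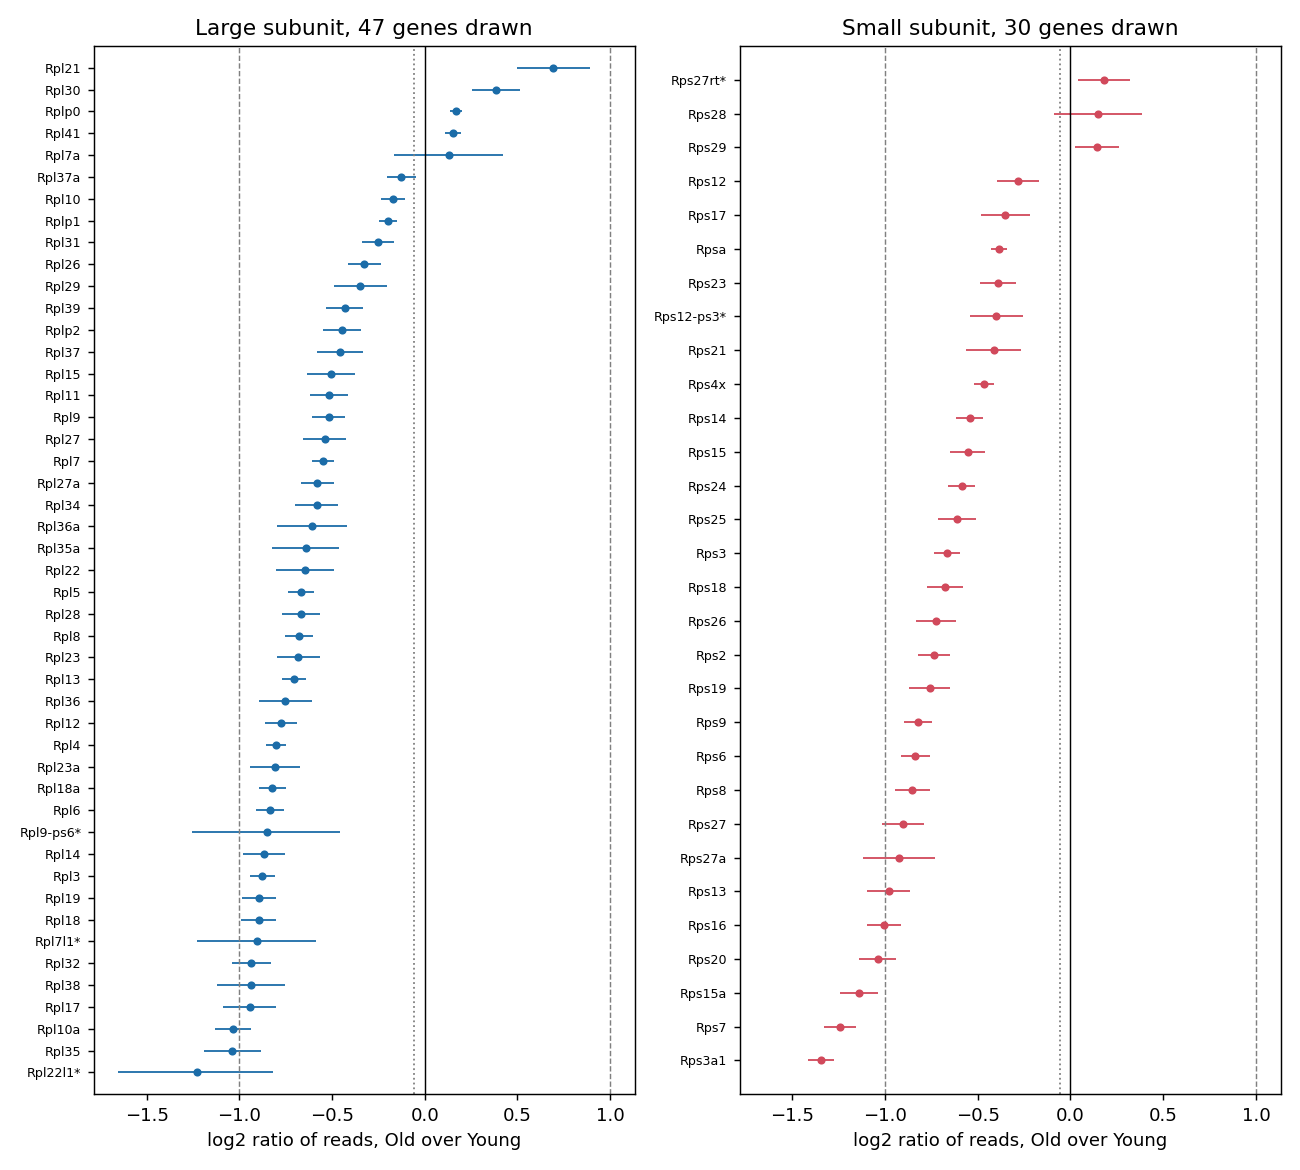
The log2 ratio of reads in Old over Young for tested members of the large (47 genes) and small (30 genes drawn) subunit, with exact 95% counting intervals. The dotted line is the median of all genes (-0.06), dashed lines mark 2-fold, and an asterisk marks members outside the core lists. Most points lie between 0 and -1, and Rps3a1, Rps7 and Rps15a have intervals beyond 2-fold lower.

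In the authors' deposited table, 3 of the 85 members had an adjusted p below 0.05 for Old over Young, Rps3a1 (0.0175), Rps7 (0.0304) and Rps27l (0.00568), among 2004 (12.39%) of all genes. Which test gave these values is not stated in the labels or headers, and each sets 1 library against another.

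Old was also set against WT, the other wild-type library of 3-month mice. This comparison shares Old with the one above, so it is no independent check of it. The median of the members was -0.62 here, beside -0.06 over all genes, and 6 of 80 passed the 2-fold rule as lower, against 4.22% of all genes: Rps3a1, Rps7, Rps15a, Rpl19, Rps27rt and Rpl9-ps6. Neutrophil and B cell markers differed between these 2 libraries too, as given below, and their part was not tested. None was higher, where 4.54% of all genes were. With the 1.5-fold bound 32 of 80 were lower (13.3% of all genes) and 0 higher (12.1%), and the interval lay below 1 for 70 (40.9%) and above 1 for 3 (36.6%). WT over Young, between the 2 wild-type libraries of 3-month mice, had a median of 0.04 over the members (-0.004 over all genes), and Rps27rt was the 1 member of 80 past the rule, higher in WT, against 0.439% higher and 0.565% lower of all genes. With the 1.5-fold bound Rpl30, Rpl9-ps6 and Rps27rt were higher (2.59% of all genes) and Rpl23a, Rpl28 and Rpl38 lower (2.73%). The interval lay above 1 for 36 of 80 (30.5%) and below 1 for 28 (30%).

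The comparison of cKO with WT addresses the labelled loss of HuR. The ribosomal protein genes did not move in 1 direction: Rplp1 was about 2-fold higher, Rps27rt over 3-fold lower, and small subunit genes were on balance lower, with medians given below. By the 2-fold rule 1 of 80 members was lower (Rps27rt) and 0 higher, against 1.71% lower and 2.52% higher of all 6273 genes tested. With the 1.5-fold bound, 3 members were lower (6.28% of all genes), Rps27rt and Rpl9 among them, and Rplp1 was higher (7.24%). The interval lay below 1 for 43 of 80 members (33.3% of all genes) and above 1 for 18 (32.7%). The median log2 ratio was -0.19 over the members and -0.01 over all genes.

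Rplp1 had 5684 reads in WT and 11750 in the library labelled cKO, beside 7852 in Young and 6260 in Old, 2.03-fold higher in the library labelled cKO than in WT (1.97 to 2.10). It was also 1.64-fold higher there than in Young (1.59 to 1.69), so the library labelled cKO lies above the other 3. The next members by the bound nearest to 1 were Rpl7a at 1.77 (1.46 to 2.15), Rpl38 at 1.56 (1.37 to 1.78), Rpl23a at 1.45 (1.32 to 1.60), Rpl28 at 1.37 (1.27 to 1.48) and Rplp0 at 1.198 (1.17 to 1.23). Rpl38, Rpl23a and Rpl28 stood at 0.896, 0.859 and 0.814 of Young in the same library, so for them WT was low beside both other libraries of 3-month mice. Rpl23a, which faces the peptide exit tunnel, had 673, 995, 1270 and 663 reads, and Rpl28 had 1153, 1607, 2165 and 1246. Rpl38 had 392 reads in WT and 623 in the library labelled cKO, beside 763 in Young and 364 in Old.

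On the lower side, Rpl9 was 1.73-fold lower than in WT (1.63 to 1.83). Rpl9 had 2988, 1760, 2523 and 1609 reads in the order WT, labelled cKO, Young, Old, with Old lowest. Rpl39, Rpl31 and Rpl19 followed at 1.57-, 1.54- and 1.52-fold lower. Rpl39, which lines the exit tunnel, had 2720, 1759, 1966 and 1331 reads, and Rpl19 had 3152, 2117, 2960 and 1454, both lowest in Old. Rpl31 had 2184, 1445, 2488 and 1910 reads and was at 0.637 of Young, so for this gene the library labelled cKO was the lowest of the 4. Against Young, 1 of 79 members passed the 2-fold rule in the library labelled cKO, Rpl30, higher (2.07% of all genes), and 0 were lower (0.793%). At the 1.5-fold bound 3 were higher, Rpl30, Rpl9-ps6 and Rplp1 (6.78% of all genes), and 0 lower (3.7%), and the interval lay above 1 for 12 (31.6%) and below 1 for 51 (29.4%). The library labelled cKO shares a comparison group with each contrast above, so these values are given side by side only.

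The authors' deposited table gave 1 of the 85 members an adjusted p below 0.05 for cKO over WT, Rps27rt (0.00670), among 624 (3.789%) of all genes. Rplp1 had an adjusted p of 0.155 there.

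The 2 subunits were compared over their core genes. In cKO over WT, the median log2 ratio was -0.06 over 46 large subunit genes (quartiles -0.28 and 0.18) and -0.25 over 30 small subunit genes (-0.42 and -0.08). The summed reads of the large subunit were at 1.02 of WT (1.01 to 1.03) and those of the small subunit at 0.838 (0.829 to 0.846). In the core large subunit 16 of 45 tested genes had an interval above 1 and 19 below, and in the core small subunit 2 of 30 above (Rps15 and Rps9) and 21 below, beside 32.7% above and 33.3% below of all genes. The large subunit counts lie near those shares. The difference of the medians, large minus small, was 0.19 on the log2 scale. In WT over Young it was -0.18, with the medians at -0.08 and 0.11, and in cKO over Young 0.03. The size of these differences depends on the summary: means gave 0.21 in cKO over WT and -0.11 in WT over Young, and summed reads 0.28 and -0.10.

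In Old over Young both subunits were lower. The median was -0.59 over the large subunit genes (quartiles -0.81 and -0.33) and -0.68 over the small subunit genes (-0.89 and -0.46), a difference of 0.08. Summed reads were at 0.744 of Young for the large subunit (0.737 to 0.750) and 0.621 for the small subunit (0.614 to 0.628). The sums differ more than the medians, and Rplp0, Rpl41 and Rplp1 belong to the large subunit. At the 1.5-fold bound, 18 of 44 large and 16 of 30 small core genes were lower, beside 12.9% of all genes. Across 76 core genes, the ratios in cKO over WT and in Old over Young had a Pearson r of 0.06 (Spearman rho -0.03), 2 contrasts with no library in common.

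Paralogues and copies were set beside their core partners. Rpl22l1, a paralogue of Rpl22 that can take its place in the ribosome, had 145 reads in WT and 117 in the library labelled cKO, beside 177 in Young and 69 in Old, at 12.8 RPKM on average beside 95.8 for Rpl22. It was 2.34-fold lower in Old than in Young (1.76 to 3.14), and Rpl22 1.56-fold, with intervals that nearly meet but do not overlap. Rpl7l1, a paralogue of Rpl7, averaged 8.16 RPKM beside 254 for Rpl7. It was 1.87-fold lower in Old (1.501 to 2.34) beside 1.46-fold for Rpl7 (1.40 to 1.52), with intervals that overlap. Rps27l averaged 4.50 RPKM beside 225 for Rps27. The 3 paralogues thus made up a small part of the RNA of each pair in these libraries.

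Rps27rt is an intronless copy of Rps27 on chromosome 9 (114982366 to 114982739, minus strand, mm10), annotated as protein-coding, while Rps27 lies on chromosome 3 (90212522 to 90213651, minus strand). Rps27 had 1422 reads in WT and 1366 in the library labelled cKO, beside 1898 in Young and 927 in Old. Rps27rt had 1991, 632, 825 and 855 reads. WT was alone in having more reads at the copy than at Rps27. Rps27rt was 3.21-fold lower in the library labelled cKO than in WT (2.93 to 3.51) and 2.64-fold higher in WT than in Young (2.43 to 2.86). Rps27 was at 0.944 in cKO over WT (0.876 to 1.02).

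All 252 coding bases of Rps27 occur unchanged in Rps27rt, with 0 differing bases, and 98.7% of the 50-base stretches of the Rps27 transcript occur in another annotated gene. The first 60 coding bases are shown because they are the same in both genes, 5′ to 3′ in lower case.
Rps27 and Rps27rt: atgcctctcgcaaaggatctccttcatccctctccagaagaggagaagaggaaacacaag
With both counts summed, the pair had 3413 reads in WT and 1998 in the library labelled cKO, beside 2723 in Young and 1782 in Old, 1.74-fold lower in cKO than in WT (1.65 to 1.84), which did not pass the 2-fold rule. The labels do not say how reads that match several genes were counted.

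Rps3a2 is annotated as a processed pseudogene of Rps3a1, on chromosome 14 (88123017 to 88123808, minus strand, mm10), and Rps3a1 lies on chromosome 3 (86137940 to 86142702, minus strand). Rps3a2 had 27 reads in WT and 29 in the library labelled cKO, beside 23 in Young and 780 in Old, 37.1-fold higher in Old than in Young (24.6 to 58.9). Gm7600, another copy of Rps3a1, had 105 reads in Old and 6 in Young. Old, the library in which Rps3a1 was lowest, was thus the library in which its copies were highest. With named copies summed, the family was 1.86-fold lower in Old (1.78 to 1.95), and with every copy found by shared sequence 1.80-fold (1.72 to 1.88), so that Rps3a1 no longer passed the 2-fold rule.

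Over the 792 coding bases of Rps3a1, Rps3a2 differs at 4, and the longest identical run is 317 bases. Counted from 1 at the first coding base, the differences are T216C, T534C, A645T and T668C, with the base of Rps3a1 first. Coding bases 609 to 668, which hold the last 2 of them, are shown with differing bases in capitals.
Rps3a1: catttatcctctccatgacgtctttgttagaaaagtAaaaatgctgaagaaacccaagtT
Rps3a2: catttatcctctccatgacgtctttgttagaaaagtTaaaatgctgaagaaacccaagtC
Reads within the coding sequence that cover none of the 4 positions match both genes. The part of read placement in the values of Rps3a1 and Rps3a2 was not tested.

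Rps10 shows the same kind of split in all 4 libraries. Its copies Rps10-ps2, on chromosome 16 (20822145 to 20822640, minus strand), and Rps10-ps1 held 99.3% to 100% of the reads of the family, whose sums were 776, 586, 871 and 459 in WT, the library labelled cKO, Young and Old. The family was 1.73-fold lower in Old than in Young (1.55 to 1.94), within the range of the other members, though Rps10 alone was too low to be tested. Rps10-ps2 differs from Rps10 at 5 of 495 coding bases, 4 of them within coding bases 379 to 438, shown with differing bases in capitals.
Rps10: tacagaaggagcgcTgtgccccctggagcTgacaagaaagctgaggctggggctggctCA
Rps10-ps2: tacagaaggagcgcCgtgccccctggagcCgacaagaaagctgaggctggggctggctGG

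Rpl30 and its copy Rpl30-ps10, on chromosome X (71803688 to 71804034, plus strand), gave the opposite picture in Young. Rpl30 had 1608 reads in WT and 1792 in the library labelled cKO, beside 902 in Young and 1076 in Old, and Rpl30-ps10 had 8, 21, 213 and 25 reads. Gm12191, a further copy, had 347 reads in Young and 86 in Old. Young was the library with the fewest Rpl30 reads and the most copy reads, and copies found by sequence held 39.0% of the family there, against 4.2% to 9.9% in the other 3. With them summed, Rpl30 moved from 1.31-fold higher in Old than in Young to 1.13-fold lower (1.05 to 1.22), and in cKO over Young it no longer passed the 2-fold rule. The pair differs at 3 of 345 coding bases, 2 of them within the first 60, shown in capitals.
Rpl30: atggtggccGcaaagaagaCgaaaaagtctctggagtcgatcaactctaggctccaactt
Rpl30-ps10: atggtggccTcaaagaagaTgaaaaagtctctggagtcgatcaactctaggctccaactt

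**Figure D3:**
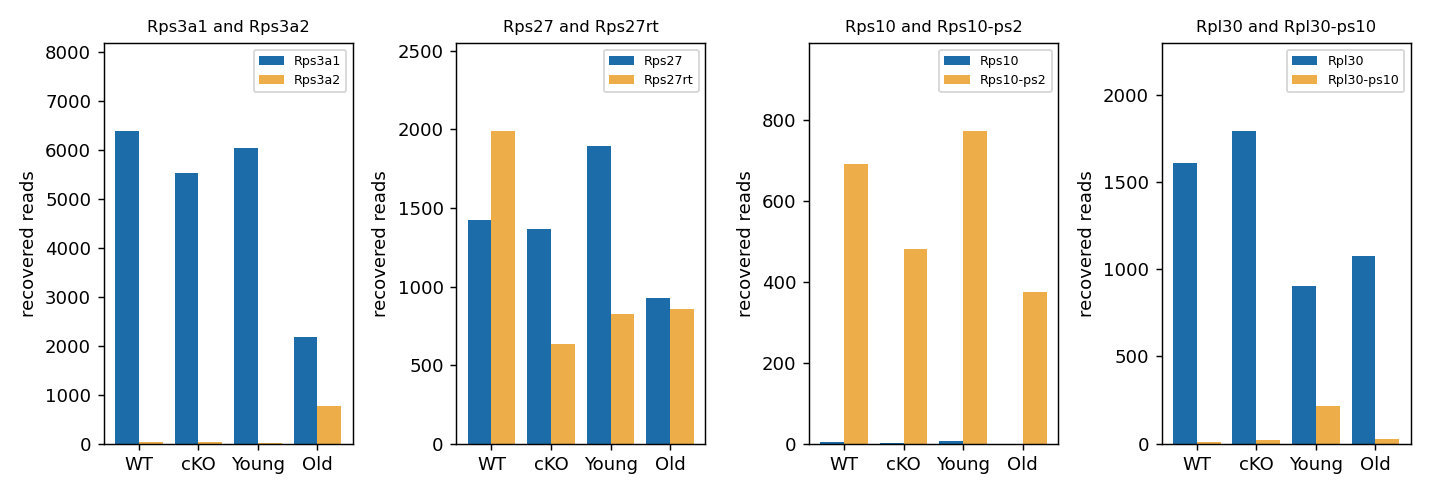
Recovered reads of 4 core genes (blue) and 1 copy of each (yellow) in the 4 libraries, as bars from 0. Rps3a2 is highest in Old where Rps3a1 is lowest, Rps27rt is highest in WT, Rps10 reads lie at Rps10-ps2 in all 4 libraries, and Rpl30-ps10 is highest in Young.

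Such sharing was general among the members. At least one 50-base stretch was shared with another annotated gene by 84 of the 85 members, and the copies listed for 64 core genes by sequence took 11.6% of the family reads in WT and 9.6% in the library labelled cKO, beside 10.2% in Young and 10.6% in Old. The total over families was thus alike in the libraries, while single families differed. Copies by sequence include genes not named after a member. Med21, listed under Rps26, had 967 reads in WT and 822 in the library labelled cKO, beside 480 in Young and 454 in Old. Reads of such a gene's own transcripts count here as reads at copies. With copies found by sequence, Rpl17, Rpl21, Rpl24, Rpl7a and Rps10 had over 50% of the family reads at copies in each of the 4 libraries, and with copies by name Rpl17 and Rps10 did. Rpl21 had the largest ratio in Old over Young among members with at least 100 reads. It was at 1.01 (0.936 to 1.09) once its 15 copies by sequence were added, and at 0.962 (0.874 to 1.06) with its 4 copies by name. Of the former, Gm12411 had 164 reads in Young and 2 in Old, and BC004004, a protein-coding gene that shares sequence with Rpl21, had 206 and 397. Rps7 and Rps15a stayed past the 2-fold rule with named copies added, at 2.35-fold (2.22 to 2.49) and 2.19-fold (2.04 to 2.35) lower in Old. Across the core genes the log2 ratios were little related to the share of 50-base stretches found in another annotated gene. The Pearson r was 0.02 in cKO over WT and -0.002 in Old over Young (76 genes). That share includes genes that overlap at the same locus, so it is not a measure of copies alone.

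Of the other 4 copies that count as members, Rps12-ps3 had 1025 reads in WT and 711 in the library labelled cKO, beside 983 in Young and 680 in Old, and all of its 50-base stretches occur in another gene. Rpl9-ps6 had 347, 293, 160 and 81 reads, 4.28-fold lower in Old than in WT (3.35 to 5.51) and 1.80-fold lower than in Young (1.37 to 2.39). Rpl10-ps3 had 89, 47, 41 and 23 reads, with WT the highest. Rpl27-ps3 had 12, 12, 20 and 12 reads, with which no difference was detectable.

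The letters around the transcription start were looked at for the pyrimidine run of 5′TOP mRNAs. RefSeq start sites (GRCm38) were matched by symbol for 61 of the 85 members, and a run of at least 8 C or T letters on the transcribed strand was sought from 20 bases before to 20 bases from the start onward. This is a looser pattern than a 5′TOP motif, which begins at the first base. It was present in 30 of 61 members (49.2%), 18 of 34 core large and 10 of 23 core small subunit genes, and in 18.4% of the 27025 genes of the table. Of 12 other translation mRNAs listed as 5′TOP, 5 held a run (41.7%). A window without a run therefore does not show that the mRNA lacks the motif. Windows of 40 bases are shown 5′ to 3′, with the run in capitals, for genes at both ends of the Old over Young order.
Rps15a (chr7:118116128-118116167, minus strand): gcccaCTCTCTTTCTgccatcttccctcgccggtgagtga
Rpl35 (chr2:39005112-39005151, minus strand): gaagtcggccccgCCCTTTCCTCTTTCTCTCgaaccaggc
Rps3a1 (chr3:86142649-86142688, minus strand): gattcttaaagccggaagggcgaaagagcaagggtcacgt
Rps7 (chr12:28635934-28635973, minus strand): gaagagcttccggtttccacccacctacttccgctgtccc
Rplp0 (chr5:115559447-115559486, plus strand): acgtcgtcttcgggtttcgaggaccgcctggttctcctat
Rpl41 (chr10:128549149-128549188, minus strand): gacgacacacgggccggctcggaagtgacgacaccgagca
Of these, Rps15a holds a run of 10 and Rpl35 one of 18. The windows of the other 4 hold none of 8 or more, so genes without a run in this scan lie at both ends. The median log2 ratio in Old over Young was -0.67 over 27 core genes with a run (quartiles -0.85 and -0.54) and -0.54 over 29 without (-0.76 and -0.39). In cKO over WT the medians were -0.08 and -0.18. The quartile ranges overlap in both comparisons.

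Other genes of the translation machinery were given by lists. Of the ribosomal proteins under other names, Rack1 had 4906 reads in WT and 4367 in the library labelled cKO, beside 5591 in Young and 2845 in Old, 1.79-fold lower in Old than in Young (1.72 to 1.88). Fau, a fusion of a ubiquitin-like protein with eS30, was 1.29-fold lower (1.23 to 1.35). The 18 further 5′TOP mRNAs of translation (elongation and initiation factors among them) were all below 1 in Old over Young, with a median of -0.63, and 0 of 18 passed the 2-fold rule. The lowest were Eif3e, Npm1 and Naca at 1.79-, 1.78- and 1.75-fold lower. In cKO over WT their median was 0.0045, with 9 above and 9 below 1, from Eif3h at 1.77-fold lower to Tpt1 at 1.47-fold higher.

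Ribosome biogenesis genes, which act in the nucleolus, had a median of -0.80 in Old over Young over 32 genes, and 3 of 18 tested passed the rule: Nop58 (195 reads in Young, 43 in Old), Tsr1 (138 and 34) and Polr1a (224 and 72). In cKO over WT their median was 0.05 and 0 of 18 passed. Ribosome rescue and recycling genes had medians of -0.54 and 0.11 in the 2 comparisons, and 0 of 5 and 0 of 8 passed. Mitochondrial ribosomal protein genes, which serve the other ribosome of the cell, had medians of -0.43 and -0.18, and Mrpl43 was the 1 of 20 past the rule in Old over Young.

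**Figure D4:**
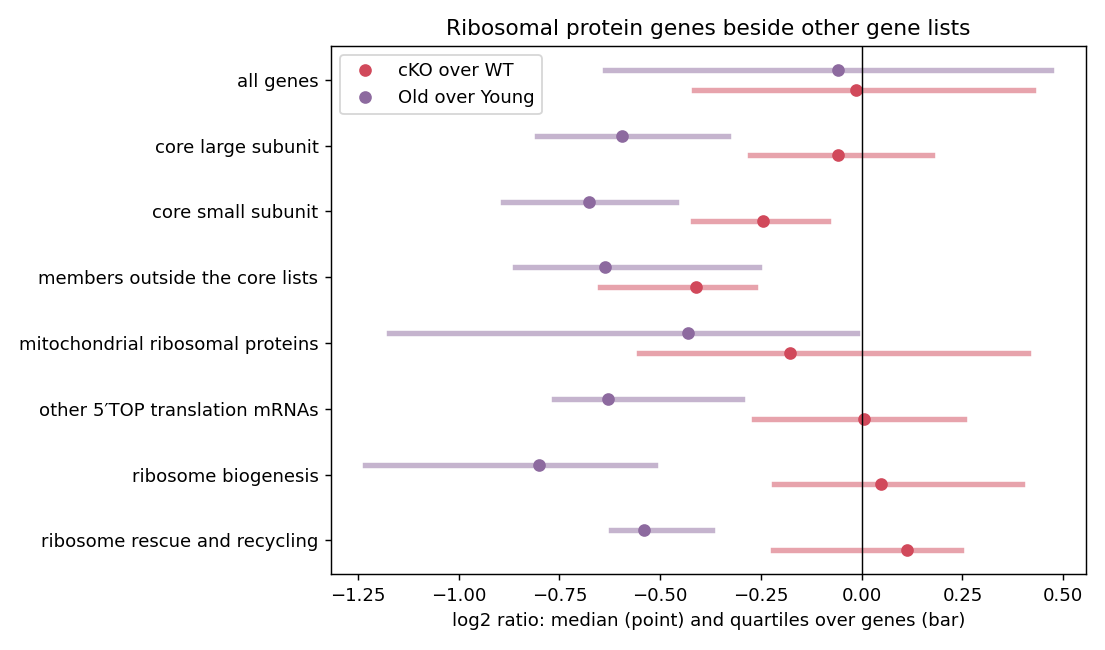
Median log2 ratio (points) and quartiles over genes (bars) of core ribosomal protein genes, members outside the core lists and 4 other lists beside all genes, for the library labelled cKO over WT and Old over Young. In Old over Young the translation lists lie below the median of all genes (-0.06), and in cKO over WT the core large subunit lies at -0.06 and the core small subunit at -0.25.

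Markers of other blood cells moved between the same libraries. In Old over Young the 14 neutrophil markers summed to 0.00315% of reads in Young and 0.0844% in Old, with Ltf, Il1r2, Ly6g, Camp and Mpo at 0 in Young, and 11 of 11 tested were higher. The 14 B cell markers summed to 0.0472% and 0.0199%, none at 0 in either library, and 8 of 13 tested were lower. The 16 T and NK cell markers summed to 0.0144% and 0.00827%, with 2 of 10 lower, and the 16 erythroid markers to 2.21% and 1.18%. The erythroid markers went both ways, with a median log2 ratio of -0.12, 7 above and 8 below 1, Sptb higher and Hbb-bt lower. In Old over WT 9 of 9 tested neutrophil markers were higher, with a summed ratio of 12.2, and 12 of 14 B cell markers were lower. The 14 monocyte markers summed to 0.353% and 0.259%, but their median log2 ratio was 1.39, 9 of 12 lay above 1, and 3 of 6 tested were higher (Cd14, Csf1r and Ccr2), with Cd14 at 0 in Young and Cx3cr1 at 0 in Old. In cKO over WT the erythroid markers summed to 0.851% of reads in WT and 1.69% in the library labelled cKO. Of 14 tested, 11 were higher and 1 lower (Hba-a2). In WT over Young their summed ratio was 0.416, with 6 of 13 tested lower and 0 higher. In cKO over Young it was 0.815, with 6 of 14 tested higher and 0 lower. The 9 neutrophil markers of that table summed to 0.00685% and 0.00413% and the B cell markers to 0.0560% and 0.0521% in the same libraries, with Lcn2 at 0 in the library labelled cKO. The part of these cells in the results was not tested.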

How the data were processed

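Platelet RNA was compared over 4 libraries, 1 per group. The submitters' processing notes name build mm10 and the tools featureCounts 1.5.0-p3, HISAT2 2.0.5, DESeq2 1.20.0 and CASAVA, with no role or order. The authors deposited 2 tables whose values are a signal per gene and library, scaled to a common library size within each table, beside their log2 fold change and its p-value, raw and adjusted. Dividing by 1 step per library gave whole reads within 0.02 read for 99.99% to 100% of values. The design assumed counts, so these recovered reads were used, and 4 per-sample columns that match no sample were not. 

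For each pair of libraries the totals were scaled with TMM factors from edgeR 4.0.16 in R 4.3.3. Ratios have exact Clopper-Pearson intervals (scipy 1.17.1), and medians use a pseudocount of 0.5 read and at least 20 reads over both libraries. No test across replicates, and so no test of the edgeR or DESeq2 kind, was possible. The script was tested on simulated data. Shared 50-base stretches, coding sequences and coordinates come from GENCODE M21 (GRCm38), and 79 of the 85 deposited gene lengths equal its exon lengths. Copies are genes named after a member, or holding at least 20% of its 50-base stretches. Start sites come from RefSeq.

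The genes named are, apart from some not reported here, the 6 highest and 6 lowest members per main comparison by the interval bound nearest to 1, the 5 highest and 5 lowest core members by level, paralogues and copies with their partners, 12 members known from ribosome biology, and up to 4 genes per other list. Other members and the pseudogenes named were chosen after their values were seen. The members and lists were chosen with earlier results of these data known. Alternatives were other library scaling, read minimums, fold bounds, pseudocounts and the summing of copies. Those left out are also not drawn in the plots of single genes, while all counts and medians include them.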

Additional observations from a re-analysis of the deposited data

How the results depend on the processing

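Of 112 alternative values of 15 results, 82 stayed close to the reported value (counts within 1.5 times, medians within the median half-width of the members' intervals), and none changed the direction of a called value. Library totals in place of TMM moved the median of all genes to -0.22 in Old over Young, -0.12 in WT over Young and -0.10 in cKO over Young and in Old over WT. Under them the members' medians were -0.80 in Old over Young, -0.072 in WT over Young, where the reported 0.04 has the other sign, and -0.25 in cKO over Young. The members past the rule were then 8, 10 and 0 in Old over Young, Old over WT and cKO over Young. In cKO over WT they were 2, with Rplp1 added, under both library totals and median-of-ratios size factors. With a 1.5-fold bound they were 4, 36, 6, 32 and 3 in cKO over WT, Old over Young, WT over Young, Old over WT and cKO over Young, and with any interval beyond 1 (chosen after seeing the data) 61, 77, 64, 73 and 63. Adding the reads of copies to their parents, by name or by sequence, left 0 in cKO over WT, WT over Young and cKO over Young, where fewer genes were tested because Rps27rt and other copies were merged, and by sequence 3 in Old over WT. Large minus small subunit was 0.28, 0.26, 0.36 and 0.18 by summed reads in cKO over WT, Old over Young, Old over WT and cKO over Young, and 0.26 by means in Old over WT, where medians gave 0.12. Except where merging is named, the cause was not tested. Depth limits Rps10, Rpl24 and Rpl27-ps3, at 30 reads or fewer. No paired analysis was possible because each group has 1 library.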
